A study of Mus musculus with 27 samples.

Results

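The genes described here code for the proteins that coat lipid droplets, join them and help to form them: the perilipins Plin1 to Plin5, the CIDE proteins Cidea, Cideb and Cidec, and the fat storage-inducing proteins Fitm1 and Fitm2. They were taken by symbol from the probe annotation of the array, which placed 14 probes on these 10 genes, of 19057 genes with a named probe. Plin1 and Plin5 had 2 probes each, Fitm2 had 3 and each other gene had 1. A probe was tested in a tissue where its detection p-value was under 0.05 on all 3 arrays of at least 1 diet. By this rule 12 probes of 9 genes were tested in the liver, 13 probes of 9 genes in white adipose tissue and 11 probes of 8 genes in muscle, so the counts below do not cover every gene in every tissue.

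A lipid droplet is a core of triglyceride and sterol ester under a single layer of phospholipid. Perilipins sit on that layer and govern the access of lipases to the core, and CIDE proteins gather at the contact between droplets and pass lipid from the smaller droplet to the larger. Fitm proteins are not on the coat itself: they lie in the endoplasmic reticulum, where droplets are born. Many of these genes are known targets of the PPAR nuclear receptors, which bind fatty acids.

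RNA was taken from 3 tissues of male C57BL/6J mice: the liver, the epididymal white adipose tissue (WAT) and the gastrocnemius muscle. The mice arrived at 4 weeks of age and for 16 weeks ate a normal diet (ND), a high-fat diet (HFD) of 20% fat and 1% cholesterol, or the HFD to which ursolic acid had been added at 0.05% by weight (UR). The UR group therefore carries the HFD as well, and the tissues were taken after a fast. Ursolic acid is a pentacyclic plant triterpenoid. Each of the 27 arrays (3 per diet and tissue) held RNA pooled from several mice, so n = 3 counts pools, and the standard errors describe how pools differed, which need not be how single mice differed. The array was the Illumina MouseWG-6 BeadChip, whose probes give a brightness in arbitrary units.

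The labelled tissues carried their markers. Of 10 hepatocyte markers, 8 were detected on every liver array, with Fgb and Tat not detected, and all 9 adipocyte markers on the array were detected on every WAT array. Muscle arrays detected 9 or 10 of 10 muscle fibre markers on all arrays of a diet. In the liver the share of probes detected did not overlap between diets (34.2% to 34.97% for the ND, 36.5% to 37.2% for the HFD and 38.7% to 39.98% for UR), and the total signal of the UR arrays lay above that of all other liver arrays. Signals were made comparable by quantile normalization, and results are given with each array scaled to a common median where that ended a call. A probe is said to rise or fall only where the limma test, with Benjamini-Hochberg adjustment over all tested probes of the tissue, gave an adjusted p below 0.05.

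The promoters of 4 of these genes are shown, since transcription factors bind near gene starts. The signals of these genes moved far between diets or tissues. So did those of others that are not shown, Plin1 and Cideb among them. The promoters shown are the 250 bases before the outermost start that the promoter annotation of GRCm38.p6 gives for each gene. They are written 5′ to 3′ on the gene's strand (minus in all 4), for Plin2 (chr4:86670060-86670309), Plin4 (chr17:56109783-56110032), Plin5 (chr17:56117549-56117798) and Cidec (chr6:113435761-113436010). The gene annotation carries Plin2, Plin4 and Plin5 on to 86670217, 56109948 and 56117606. The last part of each of these windows therefore lies within the annotated gene. Capitals mark matches, on either strand, to AGGTCA, the hexamer that nuclear receptors bind, to CCAAT, to TATAAA or to CACGTG; matches could overlap, and none did.
Plin2: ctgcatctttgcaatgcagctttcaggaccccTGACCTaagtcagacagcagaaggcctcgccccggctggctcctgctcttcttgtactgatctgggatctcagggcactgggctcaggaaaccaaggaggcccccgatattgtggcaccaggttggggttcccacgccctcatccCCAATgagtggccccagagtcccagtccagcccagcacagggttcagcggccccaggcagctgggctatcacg
Plin4: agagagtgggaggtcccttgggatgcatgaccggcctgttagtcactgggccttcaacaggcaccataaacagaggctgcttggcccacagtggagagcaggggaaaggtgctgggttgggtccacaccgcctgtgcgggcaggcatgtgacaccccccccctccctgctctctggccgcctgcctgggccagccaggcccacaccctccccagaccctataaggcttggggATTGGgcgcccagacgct
Plin5: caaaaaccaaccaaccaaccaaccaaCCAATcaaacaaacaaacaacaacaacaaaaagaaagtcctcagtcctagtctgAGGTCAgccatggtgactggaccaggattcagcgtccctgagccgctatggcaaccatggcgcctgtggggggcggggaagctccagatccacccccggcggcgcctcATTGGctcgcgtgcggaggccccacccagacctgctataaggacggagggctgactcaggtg
Cidec: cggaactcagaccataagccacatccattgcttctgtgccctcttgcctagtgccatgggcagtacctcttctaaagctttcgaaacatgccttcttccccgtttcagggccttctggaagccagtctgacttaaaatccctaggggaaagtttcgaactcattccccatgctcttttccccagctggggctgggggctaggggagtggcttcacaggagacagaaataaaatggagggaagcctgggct

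Plin5 and Plin2 each held AGGTCA, 170 bases upstream in Plin5 and 218 bases upstream in Plin2, there on the opposite strand (printed as TGACCT). The hexamer was present in 14.02% of 32851 promoters of the same length. The DR1 element is this hexamer repeated in the same direction with a single base between the copies. PPAR and RXR bind this form as a pair. Its exact letters were found in 0 of 9 promoters of these genes and in 0.0335% of all promoters. A match that rare would hardly be met in 9 promoters, so its absence here does not tell if PPAR sites are present. CCAAT lay 73 bases upstream in Plin2, 18 in Plin4 and 224 and 62 in Plin5 (that of Plin4 and the nearer of Plin5 on the opposite strand), against 33.8% of all promoters with a match. All these distances are counted from the start at which the window was cut. The CCAAT of Plin2 and that of Plin4 lay inside the genes as annotated, and the nearer of Plin5 reached the edge of its gene. TATAAA (12.4% of all promoters) and CACGTG (6.02%) were in none of the 4 shown. Cideb, which is not shown, held TATAAA 172 bases upstream. Cidec held none of the motifs, which says only that these letters are not in this window. Plin4 and Plin5 are neighbours on chromosome 17.

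With the ND the droplet genes divided the tissues between them. Of 14 probes, 13 differed between WAT and liver, 12 between muscle and liver and 14 between WAT and muscle, where 79.7% (42.5% higher, 37.2% lower), 79.4% (41.9% higher, 37.5% lower) and 77.2% (40.6% higher, 36.6% lower) of all tested probes differed. Most genes differed between tissues, so these counts say nothing particular about droplet genes. With median scaling 11 probes were called for WAT against muscle, where Plin3 and Fitm2 probes 1 (-0.10, adjusted p = 0.434) and 2 (-0.10, adjusted p = 0.477) were lost, and 11 for muscle against liver. For these comparisons the signals were normalized over the 9 ND arrays.

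WAT was the site of Plin1, Plin4 and Cidec. Plin1, the perilipin of adipocytes that holds back lipolysis until protein kinase A acts on it, gave signals of 2973, 2532 and 2815 in WAT on its brighter probe and was not detected on any liver or muscle array. The signal in WAT was at least 13.2-fold higher than in the liver and at least 13.7-fold higher than in muscle. Such bounds, here and below, replace the other group's signal on each array by the lowest detected signal where that is higher. Cidec, also known as Fsp27, which makes the single large droplet of white adipocytes, read 37829, 40764 and 42998 in WAT, against 1125, 738 and 1363 in the liver and no detection in muscle. The difference between WAT and liver was 5.28 (standard error 0.16, adjusted p = 4.73e-13) on the log2 scale, and WAT was at least 201-fold above muscle. Plin4, which coats droplets of adipocytes and muscle, stood at 63365, 63032 and 64979.6 in WAT, 18745, 19886 and 15948 in muscle and 2402, 2564 and 1282 in the liver. In RNA of whole tissue, more cells of a type and more RNA per cell cannot be told apart. The deposited Plin4 signals of WAT (54798.2 to 66296.5 over all diets) lie near the highest that the arrays give, so differences from WAT are read as lower bounds. The 3 tissues did not overlap, with log2 differences of 5.002 for WAT against liver, 3.19 for muscle against liver and 1.82 for WAT against muscle (standard error 0.19 for each).

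The liver was the site of Cideb and of the highest Plin2 signal. Cideb, which loads lipid onto very-low-density lipoproteins in hepatocytes, read 10338, 9463 and 10302 in the liver, 219, 206 and 211 in WAT and was not detected in muscle. WAT lay below the liver by a log2 difference of -5.56 (standard error 0.07), and the liver was at least 49.7-fold above muscle. Plin2, the perilipin found on droplets of most cells, was highest in the liver (6079.8, 5511 and 5134), lower in WAT (1820.5, 2241 and 2326) and lowest in muscle (521, 537 and 588). Its log2 differences were -1.39 for WAT against liver and -3.34 for muscle against liver (standard error 0.10 for each).

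Muscle had the highest signals of Fitm1, Cidea and Plin3. Fitm1, known from skeletal muscle, read 1424, 1387 and 1322 there, 669, 539 and 644 in the liver, and was not detected in WAT with any diet. Muscle was at least 7.67-fold above WAT and above the liver by 1.16 (standard error 0.09) on the log2 scale. Cidea, best known from brown fat, read 754, 717 and 753 in muscle and 341, 441 and 382 in WAT, and was not detected in the liver with the ND. Of 8 brown adipocyte markers, Ucp1 and Elovl3 were detected on no muscle array and 5 were detected on every one (Cox7a1, Cox8b, Ppargc1a, Cpt1b and Zic1), of which all but Zic1 are also genes of muscle fibres. With the ND their summed signal lay at 113796 to 119271 on the muscle arrays, at 5386 to 5788 on the liver arrays and at 3361 to 3862 on the WAT arrays, and the part of brown adipocytes in the Cidea signal was not tested. Plin3, which moves from the cytosol onto young droplets, was higher in muscle than in the liver by 0.81 (standard error 0.08) and than in WAT by 0.55, and the latter was lost when arrays were scaled to a common median (log2 difference of WAT against muscle -0.01, adjusted p = 0.963).

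Plin5, which ties droplets to mitochondria in cells that burn fat, was lowest in WAT on both probes. Probe 1 read 3438, 3819.6 and 3492 in the liver, 639, 528 and 589 in WAT and 4793, 4335 and 4245 in muscle. Its 2 probes disagreed on the other tissues: muscle was above the liver by 0.31 (standard error 0.08, adjusted p = 0.00258) on probe 1 but below it by -0.77 (standard error 0.08) on probe 2, and the first of these was 0.12 (adjusted p = 0.264) with median scaling. Fitm2, the widespread member of its family, was higher in muscle than in the liver on all 3 probes, by 1.36, 0.61 and 0.87 on the log2 scale.

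**Figure D1:**
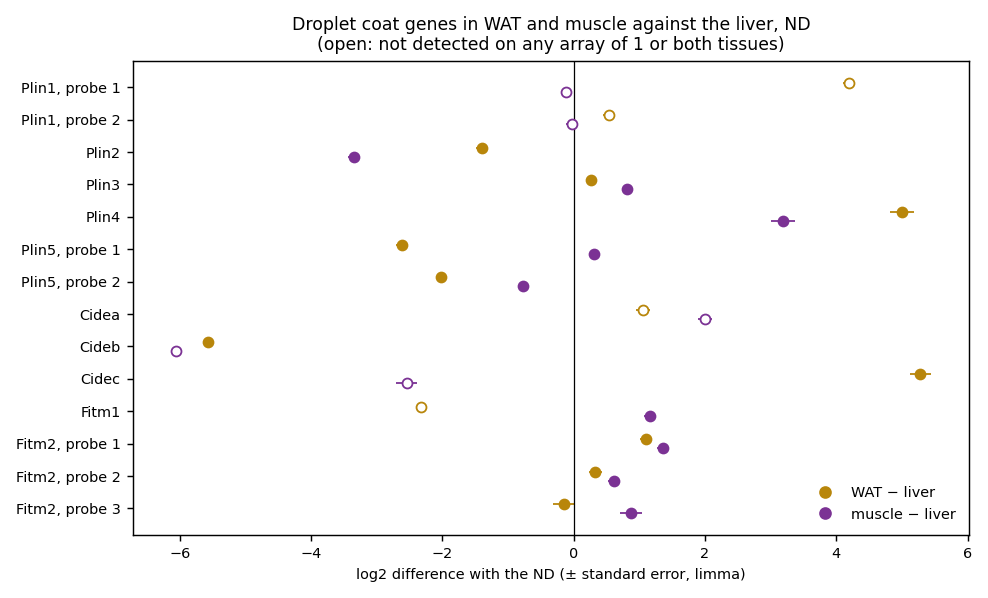
Log2 differences (x axis, with limma standard errors) of WAT and of muscle against the liver for the 14 probes (y axis) with the ND, 3 arrays per tissue; open points mark a probe not detected in 1 or both of the tissues compared, which has only a bound or no fold. Plin4 and Cidec lie near 5 for WAT, and Cideb lies below -5 for WAT and muscle.

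In the liver with the HFD, Cidea went from no detection to detection on every array, Plin4 rose and Plin5 fell. Of the 12 probes tested, 7 changed with the HFD (5 rose, 2 fell), beside 24.9% of all tested probes (13.3% higher, 11.6% lower). The perilipins moved apart. Rank products, the test of the study's methods, called 6 of these 7 and lost Plin3.

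Cidea was not detected on any of the 3 ND liver arrays (signals 185, 156 and 190.3) and was detected on every HFD array, at 2689, 3457 and 2122. The HFD signal was at least 13.8-fold higher (adjusted p = 4.72e-08; the probe was tested only because the HFD and UR arrays detected it), and all 3 HFD arrays lay far above the ND arrays. Cidea is known to enlarge droplets in the fatty liver of mice. Of the adipocyte markers, Adipoq, Retn, Fabp4 and Aqp7 were not detected on any liver array of any diet. Lep was detected on 2 of 3 UR arrays and on no other liver array.

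Plin4 read 2428, 2599.8 and 1237 with the ND and 5618, 5362 and 5600.0 with the HFD. It rose by 1.48 (standard error 0.20, adjusted p = 0.000194) on the log2 scale, and the third ND array was low while the HFD arrays were close together. Cidec read 1072, 695 and 1322 with the ND and 1597, 1789.7 and 1391 with the HFD, a rise of 0.67 (standard error 0.18, adjusted p = 0.0165). The lowest HFD array lay just above the highest ND array, and Cidec was no longer called without HFD replicate 2 (0.59, adjusted p = 0.0690) or with a robust variance (adjusted p = 0.0803). Fitm1 rose by 0.60 (standard error 0.11), from 627, 498 and 602 to 924, 899 and 796, with no overlap. Plin3 rose by 0.23 (standard error 0.06, adjusted p = 0.0172), from 583, 579.7 and 602 to 692, 719 and 659, and missed the threshold without HFD replicate 2 (adjusted p = 0.0715).

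Plin5 fell on both probes. Probe 1 read 3555, 4005 and 3626 with the ND and 2518, 2518 and 2566 with the HFD, and fell by 0.56 (standard error 0.12, adjusted p = 0.00514). Probe 2 fell by 0.53 (standard error 0.08, adjusted p = 0.000345), with every HFD array below every ND array. Plin2, often used as a marker of fat loading, did not rise: it read 6519, 5886 and 5511 with the ND and 4987, 5234 and 4871 with the HFD. The arrays did not overlap, yet the log2 change of -0.24 (standard error 0.11) missed the threshold (adjusted p = 0.124). The adjusted p was 0.0419 without UR replicate 3, which entered only through the shared normalization and variance. Cideb gave -0.08 (standard error 0.06) and the 3 Fitm2 probes -0.11, -0.22 and -0.19, none past the test.

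With UR added to the HFD, Cidea and Plin5 fell in the liver and Plin3 rose. Of the 12 probes, 6 changed (2 rose, 4 fell), beside 55.1% of all tested probes (21.9% higher, 33.3% lower), so the share called was no larger than over all probes. Rank products called only Cidea and Plin5 probe 1 here, and not Plin3 (adjusted p = 0.518), Plin5 probe 2 (0.257) or Fitm2 probe 1 (0.236). Cidea read 1659, 1311 and 1875 with UR, below all 3 HFD arrays, a fall of 0.76 (standard error 0.16, adjusted p = 0.00140), and it stayed detected on every UR array. Against the ND, whose arrays did not detect it, the UR signal was at least 8.13-fold higher.

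Plin5 fell again. Probe 1 read 1984, 1343 and 1336 with UR, a fall of 0.73 (standard error 0.12, adjusted p = 0.000242) from the HFD, and probe 2 read 373, 326 and 318, a fall of 0.46 (standard error 0.08). All UR arrays lay below all HFD arrays, which lay below all ND arrays, on both probes, and UR against ND gave -1.29 (standard error 0.12) and -0.99 (standard error 0.08). With median scaling the log2 changes from the HFD were -0.45 (adjusted p = 0.00789) and -0.28 (adjusted p = 0.0113), still past the threshold.

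Plin3 went up a second step, to 859.7, 863 and 913 with UR, a rise of 0.35 (standard error 0.06, adjusted p = 0.000424) with no overlap with the HFD. Plin4 went part of the way back, to 3903, 4090.3 and 3969, with every UR array between the ND and HFD arrays. Its log2 change of -0.47 (standard error 0.20) missed the threshold (adjusted p = 0.0584). That rested on the ND arrays, which enter this comparison only through the shared normalization and variance: the adjusted p was 0.0479, 0.0338 and 3.33e-05 without ND replicate 1, 2 or 3. With median scaling the change was -0.19 (adjusted p = 0.478). Plin4 was above the ND by 1.01 (standard error 0.20, adjusted p = 0.000680).

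The 3 probes of Fitm2 did not move together in the liver with UR. Probe 1 rose by 0.61 (standard error 0.08, adjusted p = 3.10e-05), from 3836, 3440.5 and 3671 to 6114, 5346 and 5324, with no overlap. Probe 2 fell by 0.24 (standard error 0.08, adjusted p = 0.0191), from 4953, 5269 and 5310.4 to 4680.0, 4239 and 4245, but with median scaling its change was 0.04 (adjusted p = 0.787), against a shifted median of all probes. Its call was also lost without HFD replicate 2 or 3 or UR replicate 2 or 3 (adjusted p 0.0570 to 0.0649). Probe 3 gave -0.23 (standard error 0.10, adjusted p = 0.0681; 0.00439 without HFD replicate 1). No common direction is given for Fitm2 in the liver. Plin2 (-0.01), Cidec (0.12), Fitm1 (-0.11) and Cideb (-0.14) did not pass the test, and their UR arrays, apart from those of Cideb, overlapped the HFD arrays. Under median scaling the signs of Plin2 (0.26), Fitm1 (0.15) and Cideb (0.12) turned, still short of the threshold.

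**Figure D2:**
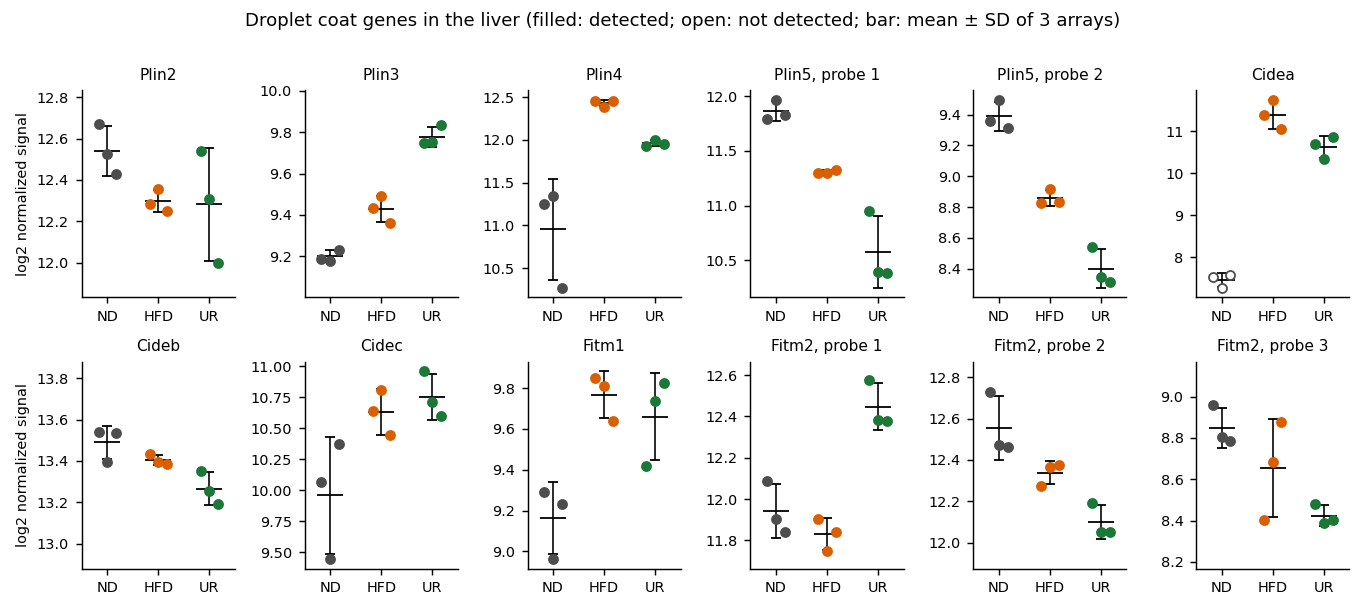
Log2 normalized signals (y axis, own range in each panel) of the 12 tested probes on the 3 liver arrays of each diet (x axis), with the mean and SD as black bars; open points were not detected. Cidea is open with the ND and filled with the HFD and UR, and both Plin5 panels step down from ND to HFD to UR.

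Markers of other cells moved as well. On arrays normalized together over the 3 tissues, the summed signal of 9 macrophage markers ranged from 11053 to 12285 (ND), from 15411 to 17592 (HFD) and from 9280 to 10072 (UR). That of the 9 lipid-laden macrophage markers on the array ranged from 3752 to 4284 (ND), from 8703 to 12128 (HFD) and from 5032 to 7236 (UR). That of 7 stellate cell and fibroblast markers ranged from 12750 to 14115 (ND), from 17457 to 19432 (HFD) and from 17006 to 21114 (UR). Itgax and Atp6v0d2 were not detected in the liver, and Mmp12 and Ctsk were not detected with the ND. The summed adipocyte markers, of which the 4 named above were not detected, ranged from 11239 to 12869 (ND), from 15926 to 17978 (HFD) and from 17431 to 24836 (UR). Lep was not detected with the ND or HFD either. These sums therefore rest mainly on other members of the list, Pck1 among them, and how far they reflect adipocytes was not tested. The part of these cells in the changes of Cidea, Plin4 and Plin5 was not tested.

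Among genes that regulate or work with the droplet coat, the HFD liver showed falls of PPAR targets and of lipolysis genes, an inhibitor of lipolysis among them. Of 9 measured PPAR target genes outside the droplet list, 1 rose and 6 fell (median log2 change -0.54), beside 16.3% higher and 11.2% lower over all genes with a median of 0.00. Pdk4, which holds pyruvate back from oxidation, fell by 1.94 (standard error 0.11), the hormone gene Fgf21 fell by 1.30 (standard error 0.16), and Fabp3, a fatty acid binding protein, rose from no detection. Cpt1a, the gate of fatty acids into mitochondria, went from detection on every ND array to none with the HFD. Of 8 lipolysis genes, 4 fell and 0 rose: G0s2, which inhibits the lipase Pnpla2, fell by 0.97 (standard error 0.12) and Pnpla2 itself by 0.30 (standard error 0.07). Of 9 regulators, Srebf1 (1.11, standard error 0.16) and Pparg (0.63, standard error 0.09) rose, and Ppargc1a and Ppara fell.

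Beside those shares of all genes, of 8 measured genes of triglyceride synthesis, 2 rose, among them Dgat2 (0.29, standard error 0.09), and 3 fell, among them Lpin2 (-0.52, standard error 0.13). Of 15 genes of droplet formation, 1 rose and 3 fell, led by the acyl-CoA synthetase Acsl3 (-0.84, standard error 0.12) and by Hilpda, an inhibitor of Pnpla2 (-0.44, standard error 0.10). With UR against the HFD, 0 of 8 triglyceride synthesis genes changed, where 19.3% of all genes rose and 35.5% fell. Of 9 regulators 1 rose, the liver factor Creb3l3 (0.59, standard error 0.08), and 5 fell. Pdk4 fell further, by 1.04 (standard error 0.11), and Mgll, which cleaves monoglycerides, rose by 0.39 (standard error 0.09). Of the droplet formation genes 5 rose and 4 fell, with Osbpl2, a sterol carrier, up by 0.70 (standard error 0.07).

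In WAT the HFD raised Plin2 and lowered the perilipin and CIDE genes of the adipocyte droplet. Of 13 probes tested, 9 changed (2 rose, 7 fell), beside 38.1% of all tested probes (17.4% higher, 20.7% lower). Rank products called only Plin2 and Cidea of these. Plin2 read 2610.1, 3153 and 3261 with the ND and 5566, 5526 and 5219.9 with the HFD, a rise of 0.86 (standard error 0.08, adjusted p = 2.48e-06). All HFD arrays lay above all ND arrays, and UR arrays (6241, 5989 and 6079.8) lay above all HFD arrays, though that further difference of 0.17 (standard error 0.08) missed the threshold (adjusted p = 0.201). Plin3 rose by 0.32 (standard error 0.08, adjusted p = 0.00785), from 1149, 991 and 1193 to 1512, 1350.3 and 1296.

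Macrophage markers moved with Plin2 in WAT. The summed signal of 9 macrophage markers ranged from 15211 to 17699 (ND), from 36341 to 42636 (HFD) and from 38213 to 43527 (UR). That of 9 lipid-laden macrophage markers ranged from 33752 to 34306, from 112807 to 143380 and from 136691 to 159516 in the same order, with Atp6v0d2 not detected and Itgax not detected with the ND. Trem2, which marks lipid-laden macrophages, read 559, 491 and 407 with the ND and 7209.6, 6551 and 4955 with the HFD, normalized over the WAT arrays. Plin2 is also a gene of foamy macrophages, and the part of these cells in its rise was not tested. The summed adipocyte markers ranged from 157852 to 177965 (ND), from 158110 to 173297 (HFD) and from 143805 to 149682 (UR). Summed mesothelial markers ranged from 2431 to 2713 (ND), from 1661 to 2137 (HFD) and from 904 to 973 (UR). Summed hepatocyte markers ranged from 61216 to 61546 (ND), from 19926.5 to 25032 (HFD) and from 13264 to 16514 (UR), with Alb not detected. Summed brown adipocyte markers ranged from 3361 to 3862 (ND), from 3590 to 3898 (HFD) and from 3535 to 3808 (UR). Of these, Ucp1 was detected on no WAT array with the HFD or UR and on at least 1 with the ND. What part these 3 lists had in the droplet genes of WAT was not tested either.

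Cidea fell most, by 0.83 (standard error 0.10, adjusted p = 2.78e-05), from 495, 649.9 and 559 to 321, 281 and 354, with every HFD array below every ND array. Cidec fell by 0.36 (standard error 0.06, adjusted p = 0.000363), from 38650.5, 41687 and 43442 to 30525, 33005 and 32879.5, also without overlap. Plin1 fell by 0.31 (standard error 0.07) on probe 1, from 4048, 3519 and 3848 to 2875, 3175 and 3136, and by 0.29 (standard error 0.08) on probe 2. Fitm2 fell on probes 1 and 2, by 0.29 and 0.35, and gave -0.25 (standard error 0.16, adjusted p = 0.237) on probe 3. Each of these falls was opposite in sign to the changes of Plin2 and Plin3 in the same RNA pools.

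Plin4 fell by 0.13 (standard error 0.05, adjusted p = 0.0420), from 62988, 62879 and 64962 to 59843, 55285 and 59545. This call was weak: leaving out 1 array lost it in 8 of 9 cases (adjusted p 0.0509 to 0.173), and so did rank products and 3 other settings (adjusted p 0.0528 to 0.0811 in those 3). The signals near the top of the scale, given above, mean that the size of this fall may be understated. Cideb (-0.08) and both Plin5 probes (0.03 and -0.07) did not pass the test.

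With UR against the HFD in WAT, Plin5 rose. It was the only gene of the 9 called, with 2 of 13 probes, beside 7.54% of all tested probes (3.41% higher, 4.13% lower). Probe 1 read 937, 779 and 867 with the ND, 912, 866 and 854 with the HFD and 1421, 1603 and 1529.9 with UR. The rise from the HFD was 0.79 (standard error 0.08, adjusted p = 0.000192), with every UR array above every ND and HFD array.

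Probe 2 was detected on 0 of 3 HFD arrays and on all UR arrays, at 257, 249.8 and 242. The UR signal was at least 1.13-fold above the HFD (adjusted p = 0.0174), and the probe was tested only because the UR arrays detected it. The call was lost by rank products and without HFD replicate 2 or 3 or UR replicate 1 or 2 (adjusted p 0.0663 to 0.0711), so that 1 of 13 probes was then called. The direction of Plin5 with UR was up in WAT and down in the liver. Of the other droplet genes, the largest log2 change was that of Fitm2 probe 3, at 0.30 (standard error 0.16, adjusted p = 0.251). Against the ND, 10 of 13 probes differed with UR (4 rose, 6 fell), beside 44.1% of all tested probes (19.9% higher, 24.2% lower), with Plin2 up by 1.03 (standard error 0.08) and Cidea down by a log2 change of -0.86 (standard error 0.10).

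**Figure D3:**
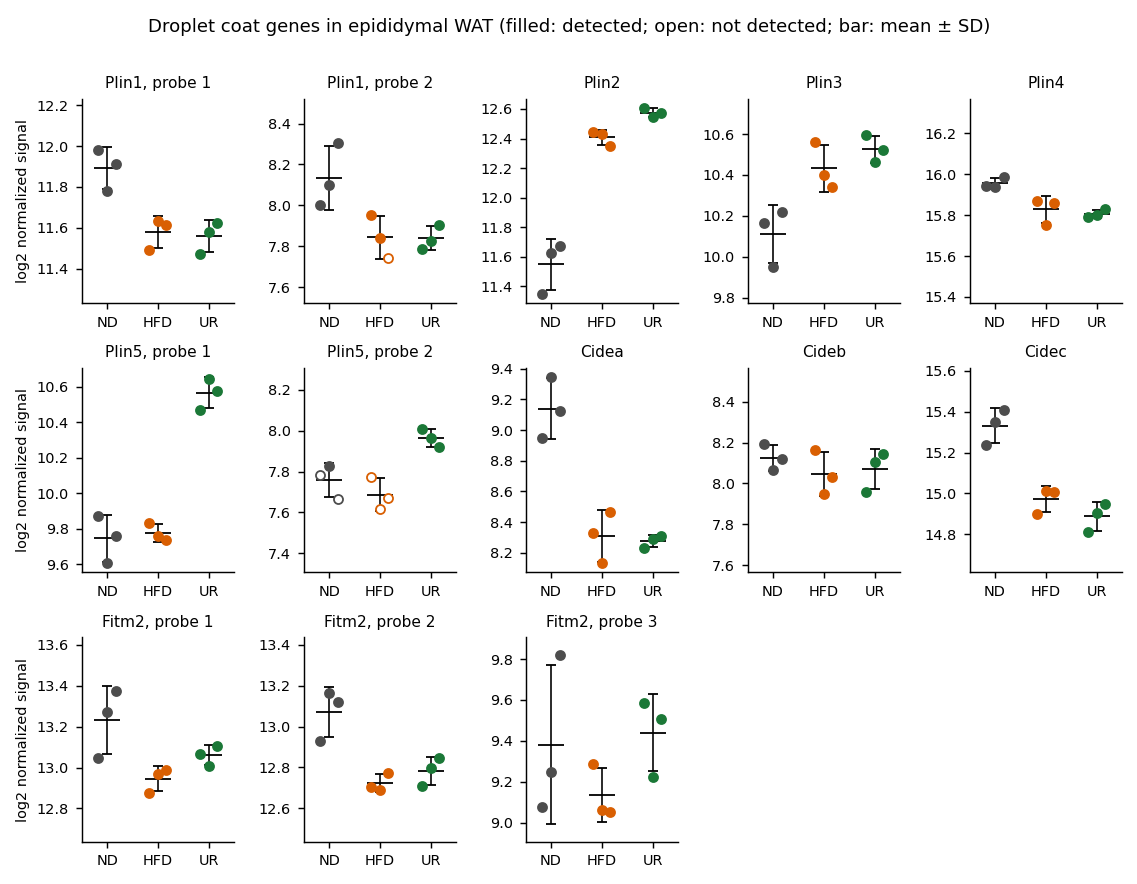
Log2 normalized signals (y axis, own range in each panel) of the 13 tested probes on the 3 WAT arrays of each diet (x axis), with the mean and SD as black bars; open points were not detected. Plin2 steps up with the HFD, Plin1, Cidea and Cidec step down, and Plin5 is level until UR.

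With the HFD in WAT, 2 of 16 droplet formation genes rose and 2 fell, as did 2 and 2 of 10 other PPAR targets. Of 7 measured regulators, 0 rose and 5 fell, with Rxra, the partner of the PPARs, down by 0.70 (standard error 0.08) and Pparg, the master regulator of adipocytes, down by 0.41 (standard error 0.10). Of 9 lipolysis genes 5 fell, among them Pnpla2 (-0.42, standard error 0.05) and Lipe (-0.51, standard error 0.09), and 1 rose, the lysosomal lipase Lipa (1.65, standard error 0.08). Lipa is a gene of macrophages too, and its rise ran beside the macrophage sums given above. Of 9 triglyceride synthesis genes 3 fell and 0 rose. Over all genes 20.2% were higher and 21.9% lower.

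With UR against the HFD, 3 of 10 PPAR target genes rose in WAT, beside 3.50% of all genes, and 1 fell. They were Cd36, which takes up fatty acids (0.40, standard error 0.09, adjusted p = 0.0190), Fgf21 (0.37, standard error 0.08) and Fabp4, the adipocyte fatty acid binding protein (0.39, standard error 0.10). Of 7 regulators 0 passed the test, and the largest value, that of Srebf1, was -0.29 (standard error 0.15, adjusted p = 0.243). Pcyt1a, which makes the phospholipid of the droplet surface, fell by 0.48 (standard error 0.09).

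In muscle with the HFD, Cidea rose and Plin3 and Plin4 fell. Of 11 probes tested, 5 changed with the HFD (3 rose, 2 fell), beside 13% of all tested probes (6.02% higher, 7.02% lower). Rank products called only Cidea of these. Cidea read 521, 495 and 520.4 with the ND and 706, 792 and 731 with the HFD, a rise of 0.53 (standard error 0.07, adjusted p = 0.000462) without overlap. It was 741, 629.9 and 749.5 with UR, which overlapped the HFD. Plin3 fell by 0.40 (standard error 0.07, adjusted p = 0.00284), from 743, 804 and 724 to 611, 521 and 596, and Plin4 by 0.32 (standard error 0.07, adjusted p = 0.0104), from 14526, 15713 and 12219.5 to 11159.6, 11543 and 11240.4, each without overlap.

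The other 2 calls were lost with median scaling. Fitm1 rose by 0.21 (standard error 0.06, adjusted p = 0.0360) and Plin5 probe 2 by 0.22 (standard error 0.06, adjusted p = 0.0283), but with median scaling they gave 0.03 (adjusted p = 0.857) and 0.09 (adjusted p = 0.465). Median scaling lowered the median change of all muscle probes from 0.01 to -0.11. Relative to that median, Fitm1 was 0.21 with quantile normalization and 0.13 with median scaling, and Plin5 probe 2 was 0.22 and 0.20. Without ND replicate 3 both calls were lost too, leaving 3. Fitm1 was also lost without ND replicate 2 or HFD replicate 3, and Plin5 probe 2 without ND replicate 1 or HFD replicate 1 or 2 (adjusted p 0.0716 to 0.141 over these). Plin5 probe 1 gave 0.06 (standard error 0.07).

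With UR against the HFD, 3 muscle probes changed (1 rose, 2 fell), beside 22% of all tested probes (11.8% higher, 10.2% lower). Cidec was detected on none of the ND or HFD arrays and on all 3 UR arrays, at 178, 245 and 227. UR was at least 1.27-fold above the HFD (adjusted p = 0.00314), and the probe was tested only because the UR arrays detected it. When detection under 0.01 was required instead, Cidec was no longer tested in muscle. Of the 10 droplet probes then tested 2 were called (0 higher, 2 lower), beside 3398 of all 13919 probes. Among the adipocyte markers, Adipoq read 469.5, 557 and 465 with the HFD and 452, 931 and 970.5 with UR, and its 2 high arrays were those with the higher Cidec signals. Lep was high on the same arrays (327, 639 and 705 with UR), while Aqp7 was not (454, 479 and 454 with the HFD, 479, 460.04 and 411 with UR). Retn, Fabp4 and Pck1 of the same list were not detected in muscle, and the summed list ranged from 15029 to 18421 (ND), from 17747 to 20198 (HFD) and from 20097 to 20878 (UR). Their part in the Cidec result was not tested.

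Fitm1 fell by 0.24 (standard error 0.06, adjusted p = 0.0151), from 1038, 1051 and 1170.2 with the HFD to 879, 956 and 927 with UR, and missed the threshold with median scaling (-0.21, adjusted p = 0.141). Fitm2 probe 3 fell by 0.56 (standard error 0.17, adjusted p = 0.0298), from 814, 847 and 801 to 736, 591 and 397, while probes 1 and 2 gave -0.11 and -0.11 (adjusted p = 0.143 and 0.284). Rank products called Cidec and Fitm2 probe 3. Both falls lost their calls without HFD replicate 3, leaving 1 of 11 probes called. Probe 3 was also lost without HFD replicate 1 or 2 or UR replicate 2 or 3, and with a robust variance (adjusted p = 0.156), and Fitm1 without UR replicate 1 (adjusted p = 0.0588). The other 8 probes gave log2 values between -0.11 and 0.10. Against the ND, 5 probes differed with UR (3 rose, 2 fell), beside 15.6% of all tested probes (8.31% higher, 7.25% lower): Cidea (0.46), Cidec (at least 1.28-fold), Plin5 probe 2 (0.21), Plin3 (-0.29) and Plin4 (-0.32). Of these, the call of Plin5 probe 2 was lost with median scaling (0.15, adjusted p = 0.199), and Fitm2 probe 2 gained one (-0.29, adjusted p = 0.0375). Plin5 probe 2 was also lost without ND replicate 1 or 3 or any UR replicate (adjusted p 0.0661 to 0.120). Plin3 was lost without ND replicate 2 (adjusted p = 0.0535) or UR replicate 2 (adjusted p = 0.0539). Rank products called only Cidea and Cidec of these.

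**Figure D4:**
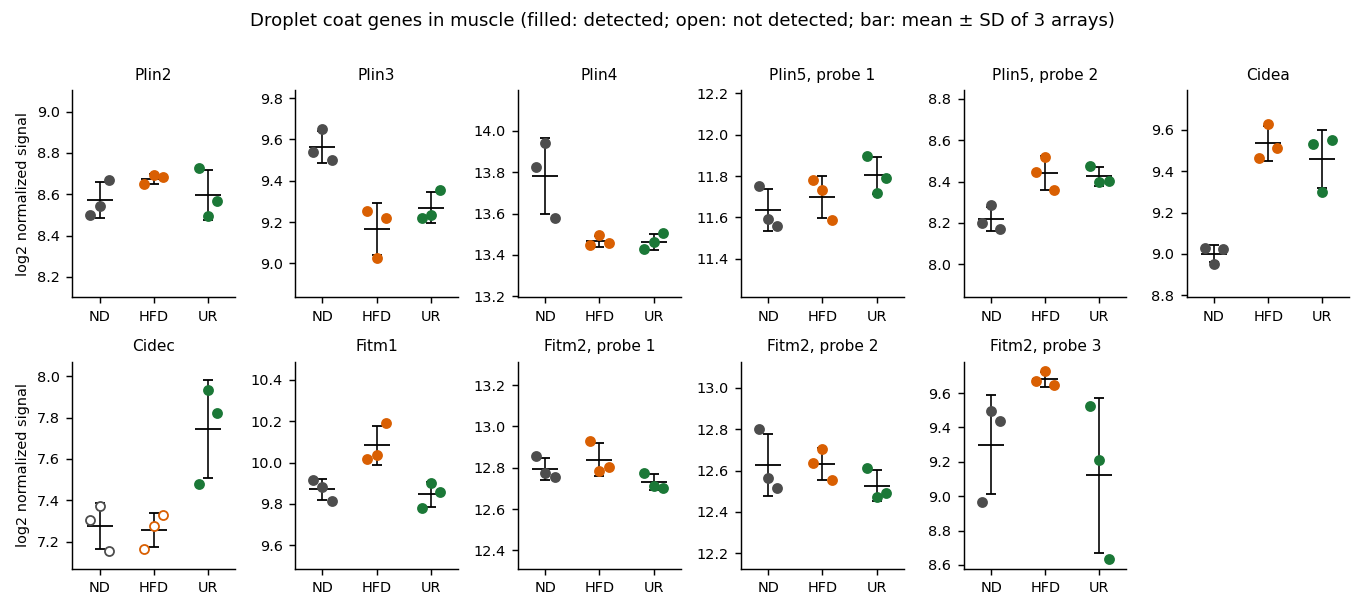
Log2 normalized signals (y axis, own range in each panel) of the 11 tested probes on the 3 muscle arrays of each diet (x axis), with the mean and SD as black bars; open points were not detected. Cidec is filled with UR only, and Cidea is higher with the HFD and UR than with the ND.

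In muscle, of 16 measured genes of droplet formation, 4 rose and 0 fell with UR, beside 11.5% of all genes higher: the caveola genes Cav1 (0.39, standard error 0.07) and Cavin1 (0.30, standard error 0.07), Bscl2, which codes for seipin (0.21, standard error 0.06), and Osbpl2 (0.15, standard error 0.05). Ppargc1a, which drives mitochondrial genes, fell by 0.69 (standard error 0.14, adjusted p = 0.00311). With the HFD, 2 of 6 triglyceride synthesis genes fell, Lpin1 by 0.60 (standard error 0.08) and Dgat2 by 0.29 (standard error 0.06), and of 8 PPAR target genes 1 rose and 2 fell, beside 7.10% of all genes higher and 7.33% lower.

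The diet effects themselves differed between the tissues, for droplet probes and for many others. With UR the count given next lies near the share over all probes, so it says nothing particular about droplet genes. Of 10 droplet probes tested in every tissue, 9 had an HFD effect and 6 a UR effect that differed among the tissues by the F test of limma over the 27 arrays, beside 47.4% and 59.1% of 13683 probes. The HFD change of Cidea was 3.94 for liver (where the ND arrays had only a bound), -0.83 for WAT and 0.53 for muscle (adjusted p = 4.30e-16). That of Plin4 was 1.48, -0.13 and -0.32 (adjusted p = 6.96e-08), and that of Plin2 was -0.24, 0.86 and 0.10 (adjusted p = 6.49e-07). The signs were opposite between tissues for each of these 3 genes, with the liver value of Plin2 short of its own threshold. The UR change of Plin5 probe 1 was -0.73 for liver, 0.79 for WAT and 0.10 for muscle (adjusted p = 3.53e-09), and on probe 2 it was -0.46, 0.28 and -0.02 (adjusted p = 8.97e-07).

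**Figure D5:**
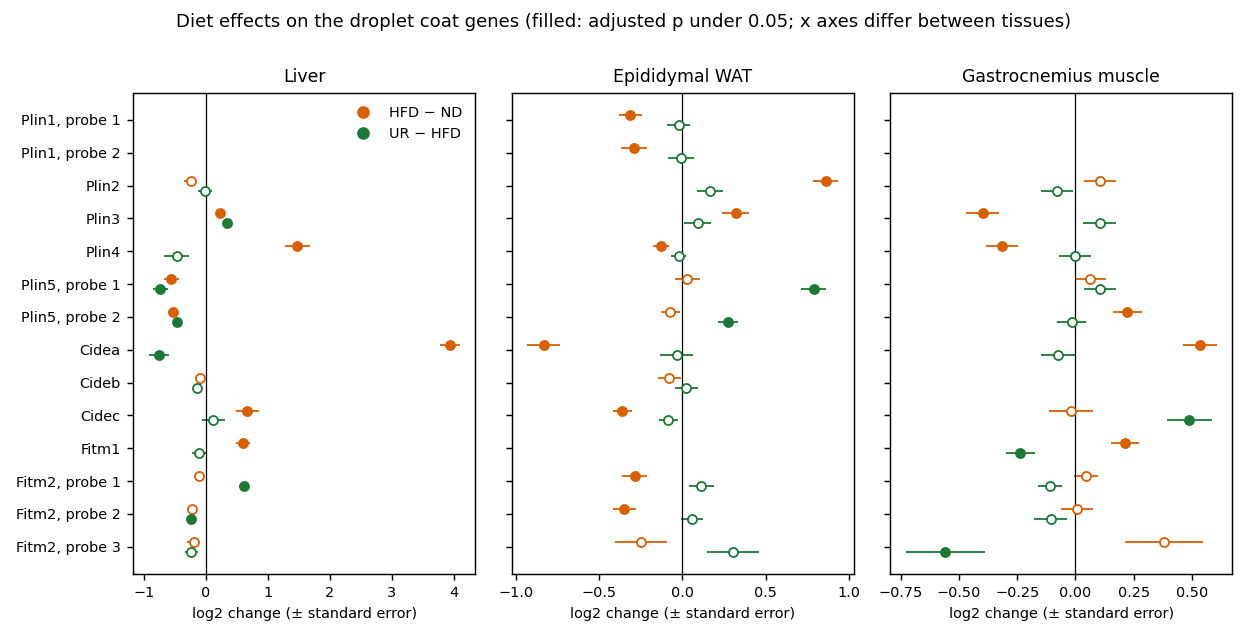
Log2 changes (x axes, with limma standard errors; ranges differ between panels) of HFD against ND and of UR against HFD for each probe (y axis) in the 3 tissues, 3 arrays per group; filled points passed an adjusted p under 0.05, and probes not tested in a tissue have no point. The UR points of Plin5 lie left of 0 in the liver and right of 0 in WAT, and the HFD point of Cidea in the liver lies at 3.94.

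Scaling mattered for the liver results with UR. Median scaling in place of quantile normalization moved the median log2 change of all liver probes from -0.07 to 0.10 for UR against HFD, and the calls over all probes from 3828 higher and 5829 lower to 6166 higher and 2189 lower. Relative to those medians, Cidea was -0.69 and -0.57, Plin5 probe 1 was -0.66 and -0.55, Plin3 was 0.42 and 0.49 and Fitm2 probe 2 was -0.17 and -0.06. For UR against ND the median moved from -0.06 to 0.14, and Cideb (-0.22, then -0.02) and Fitm2 probes 2 and 3 lost their calls, leaving 8 of 11. Here 11 of the 12 probes had been called (6 higher, 5 lower), beside 60.1% of all tested probes (25% higher, 35.1% lower).

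The same split moved in the other comparisons. With median scaling the calls for HFD against ND in the liver went from 2331 higher and 2030 lower to 2406 and 1052, and for UR against HFD in WAT from 664 and 803 to 849 and 496. In muscle they went from 983 and 1146 to 112 and 3160 for HFD against ND and from 1934 and 1666 to 1756 and 353 for UR against HFD. For UR against ND they went from 4381 and 6152 to 7420 and 2277 in the liver and from 1358 and 1184 to 533 and 2592 in muscle. Between tissues with the ND they went from 8729 and 7624 to 11153 and 4950 for WAT against liver, and from 8336 and 7511 to 11771 and 4249 for WAT against muscle, with shifts of the median by 0.23 and 0.28. The rise of Cidea and the falls of Plin3 and Plin4 in muscle with the HFD passed the test under both scalings. Of the member calls in WAT, none changed with median scaling.

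The genes whose signals ran closest to those of droplet genes were found by the root mean square difference of centred log2 signals over the 9 arrays of a tissue. For Cidea in the liver, out of 9775 genes, they were Gsta1, a glutathione transferase (0.418), Lcn2, an acute-phase lipocalin (0.584), and Cyp2b9, a cytochrome P450 (0.639). For Plin4 in the liver they were Gas7 (0.268), Saa3 (0.270) and the lipoprotein receptor gene Vldlr (0.273), and for Plin5 they were Tmem219 (0.133), the fatty acid desaturase gene Fads2 (0.153) and the circadian gene Clock (0.156). For Plin2 in WAT, out of 10744 genes, they were Lair1 (0.0684), the lysosomal protease gene Ctsl (0.0723) and Fignl1 (0.0734). This likeness is a description over 9 arrays of 3 diets, and nothing is said of shared function or control.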

How the data were processed

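RNA pools from 3 tissues and 3 diets were hybridized to 27 BeadChips, 3 per group. The deposited intensity of each probe was exported by the authors from BeadStudio without normalization between arrays (the sources do not say if a background was removed), and each came with a deposited detection p-value against the array's negative controls. A deposited log2 table, quantile-normalized by the authors, was an alternative for liver and WAT only, since its muscle columns equalled its WAT columns in all 45281 rows. Quantile normalization was run on the 9 arrays of each tissue (or the 9 ND arrays), followed by log2. Probes with a detection p-value under 0.05 on all 3 arrays of a group were tested with limma 3.58.1 in R 4.3.3 (linear model, empirical Bayes with an intensity trend, Benjamini-Hochberg adjustment). The precision is limited by 3 arrays per group. Sequences came from RefSeq tables of GRCm38.p6. Members, lists, named genes (all members, at most 4 genes of smallest p per list, and for members whose group means span over 1 on the log2 scale the 3 nearest genes) and tests were chosen with earlier results of these data known. The HFD arrays are shared by both main comparisons of a tissue. Alternatives covered the filter, background, scaling, variance model, replicate block, rank products and leaving out each array. The statistical step was tested on simulated data.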

Additional observations from a re-analysis of the deposited data

Results flagged for a closer look

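The effect of a diet differed among the tissues, by the limma F test over the 27 arrays, for the following droplet genes, each probe of which was detected on all arrays of at least 1 group in every tissue (Cidec in muscle only with UR, so that its HFD change there lies between undetected groups). For HFD against ND the adjusted p was 4.30e-16 for Cidea, 6.96e-08 for Plin4, 6.49e-07 for Plin2, 3.77e-06 for Plin3 and 0.000523 for Cidec. It was 0.000974 and 1.31e-06 for Plin5 probes 1 and 2, and 0.0296 and 0.0236 for Fitm2 probes 1 and 2. Plin3 rose in WAT and in the liver and fell in muscle (0.32, 0.23 and -0.40), and Cidec rose in the liver and fell in WAT (0.67 and -0.36).

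For UR against HFD the adjusted p was 0.00204 for Cidea, 0.0468 for Cidec, 3.53e-09 and 8.97e-07 for Plin5 probes 1 and 2, and 4.20e-06 and 0.0110 for Fitm2 probes 1 and 3. Fitm2 probe 1 read 0.61, 0.12 and -0.11 on the log2 scale for liver, WAT and muscle, and probe 3 read -0.23, 0.30 and -0.56, so the probes of this gene gave different orders of the tissues.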

How the results depend on the processing

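Over the alternative settings, 1577 of 1671 values of single probes kept their side of the threshold and, where called, their direction. A sign that turned with no call in either setting was counted as kept, as for liver Plin2, Fitm1 and Cideb above. Of the rest, 85 lost a call, 8 gained one and 1 reversed from a called value. The last was Fitm2 probe 2 in the liver, UR against HFD (0.041 with median scaling, though -0.06 relative to the median of all probes). With 1 array left out, 1288 of 1350 stayed, 48 lost and 14 gained a call. The methods' rank products with 100 permutations called fewer droplet probes and fewer probes overall (for UR against HFD 863 of 17518 in the liver, 451 of 19455 in WAT and 366 of 16332 in muscle; between tissues 1227 to 1231 of 20520): for UR against HFD 2 (liver) and 1 (WAT), for UR against ND 3 (liver), 2 (WAT) and 2 (muscle), for HFD against ND 2 in WAT and 1 in muscle, and between tissues 4 (WAT against liver), 2 (muscle against liver) and 4 (WAT against muscle). Over all probes, rank products called 907 of 17518 (liver), 973 of 19455 (WAT) and 384 of 16332 (muscle) for UR against ND. The calls for HFD against ND were 671 of 17518 (liver), 909 of 19455 (WAT) and 307 of 16332 (muscle). For UR against HFD in WAT, 1 of 11 droplet probes was called with detection under 0.01, beside 1486 of all 16974 probes. With the brightest probe per gene 1 of 9 was called, beside 751 of 10753. For HFD against ND in muscle, 3 of 14 were called over all probes of the array, beside 1594 of 45281. With median scaling 3 of 11 were called (1 higher, 2 lower), beside 3272 of 16332 (112 higher, 3160 lower). The cause was not tested. Leaving out 1 array gave 1 to 2 called for UR against HFD in WAT, beside 398 to 2157 of 19455 probes. In muscle it gave 3 to 6 for HFD against ND, beside 1266 to 1999 of 16332. For UR against HFD in muscle it gave 1 to 3, beside 2178 to 3638. For UR against ND in muscle it gave 3 to 5 (3 without UR replicate 2), beside 1423 to 2643. Within a tissue, an array's best match carried its own number for 2 of 9 liver, 2 WAT and 3 muscle arrays. Across tissues it did so for 9 of 9 ND arrays, with same-number correlations of 0.0641 to 0.147, a hint from the data, not from the design, that numbers match across tissues; the block there called 13 (WAT against liver), 12 (muscle against liver) and 14 (WAT against muscle), and 9 and 6 probes in the test of differences among tissues. The replicate block moved no count by over 1.5 times and added Plin4 for UR against HFD (adjusted p = 0.0444) and Plin2 for UR against ND (adjusted p = 0.0218), both in the liver: it called 7, 7 and 12 liver probes, 9, 2 and 10 WAT probes and 5, 3 and 5 muscle probes (HFD against ND, UR against HFD, UR against ND), where it called 4157, 9477 and 10413 of all 17518 liver probes, 7133, 1374 and 8380 of 19455 WAT probes and 2142, 3520 and 2516 of 16332 muscle probes.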

Other observations

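Against the ND, the lipolysis genes of WAT were lower with UR more often than higher: 1 of 9 rose and 7 fell (median log2 change -0.33), beside 22.6% higher and 24.4% lower over all genes. In the liver with UR, 2 of 9 other PPAR target genes rose and 6 fell (median -0.41), beside 23.9% higher and 35.04% lower. In muscle with UR, 1 of 8 rose and 4 fell (median -0.17), beside 9.07% higher and 7.40% lower.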
